A study of Mus musculus with 5 samples.

Results

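Pax5, Pou2f1, Pou2f2 and Pou2af1 encode the B-cell identity factor Pax5, the octamer-binding factors Oct-1 and Oct-2, and their coactivator OCA-B. The 4 genes were listed by name, and all 4 were found among the 21521 protein-coding genes of the RefSeq annotation of the mouse genome build GRCm38. The data are a list of EBF1-bound sites from a chromatin immunoprecipitation sequencing (ChIP-seq) experiment. A site belonged to a gene when its centre lay inside the gene span or, if it lay in no coding gene, when that gene was the nearest within 100 kb. By this rule 9 of the 7494 sites belonged to the 4 genes.

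The series holds 5 libraries of mouse pro-B cells, an early stage of the B lineage, with 1 library per group. All came from fetal liver cells of the genotype Ebf1-/-, into which EBF1 was brought back by transduction, so EBF1 acted here from the introduced copy. The list came with the library labelled EBF1 wt and precipitated with an antibody against EBF1. The EBF1 library of the YmA form, the BRG1 library of the YmA form and both EBF1 wt inputs were not analysed here, nor was the dC form that the design text names. The authors had put each of the 7494 sites, all 300 bp wide, into a class named YmA-dep, YmA-ind or CTD-ind. The labels do not say how the classes were made, and their names serve as labels only. No height, score or depth comes with a site, and with 1 list there is no replicate and no test between conditions.

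EBF1 and Pax5 act in sequence at B-lineage commitment: EBF1 works upstream of Pax5, and Pax5 then keeps the B-cell programme in place and also acts on Ebf1 itself. Pax5 binds DNA through a paired domain. Oct-1 is made in most cell types and Oct-2 mainly in B cells, and both use a POU domain to bind the octamer ATGCAAAT, an element of immunoglobulin promoters. OCA-B, also called OBF-1 or Bob.1, has little DNA binding of its own and docks on the POU domain once that sits on an octamer. EBF1 itself binds as a dimer to a palindrome, written here as TCCCNNGGGA.

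Promoter sequence was at hand for each of the 4 genes, as 6 RefSeq windows of 300 bases (GRCm38), each from 250 bases before a listed start. The windows cover listed starts only, and the upper end of the Pou2f2 span, 48.3 kb from its listed start, has none. No EBF1 site touched any of the 6 windows. The closest was the site of Pou2af1, with 59 bases between the site and the window. The bases before the Pou2af1 start are shown because they adjoin that site, those before the Pax5 start because Pax5 carried the most sites. Capitals mark an octamer with at most 1 mismatch in Pou2af1 and a single arm of the EBF palindrome (TCCC or its complement GGGA) in Pax5.
Pou2af1 (chr9:51213440-51213689, plus strand): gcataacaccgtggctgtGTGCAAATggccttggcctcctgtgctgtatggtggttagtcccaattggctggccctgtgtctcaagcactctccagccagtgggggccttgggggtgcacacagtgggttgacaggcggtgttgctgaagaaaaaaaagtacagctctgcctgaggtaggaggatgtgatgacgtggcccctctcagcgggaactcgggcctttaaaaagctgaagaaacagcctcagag
Pax5 (chr4:44710695-44710944, minus strand): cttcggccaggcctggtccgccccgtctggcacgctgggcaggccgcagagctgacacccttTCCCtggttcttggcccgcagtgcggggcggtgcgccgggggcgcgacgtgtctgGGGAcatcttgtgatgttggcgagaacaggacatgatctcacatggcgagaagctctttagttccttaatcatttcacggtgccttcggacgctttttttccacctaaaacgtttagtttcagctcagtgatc
None of the 6 windows held the full palindrome TCCCNNGGGA, its shorter core CCCNNGGG or an exact octamer on either strand. A single arm says little, since 95.4% of all 32585 promoter windows hold one, and an octamer with at most 1 mismatch was found in 18.6% of them. The Pou2af1 match GTGCAAAT began at position -232 from the start.

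All 4 genes carried at least 1 site, as did 19.6% of protein-coding genes. Pax5 had 4 sites, Pou2f1 had 3, and Pou2f2 and Pou2af1 had 1 each. Of coding genes, 6.78% had 2 or more sites, 2.99% had 3 or more and 1.56% had 4 or more. By class, the 9 sites split into 5 CTD-ind and 4 YmA-ind sites, with 0 in YmA-dep. CTD-ind sites thus made up 55.6% (95% exact binomial interval 21.2 to 86.3%) against 34.0% (33.0 to 35.1%) of the whole list. YmA-ind sites made up 44.4% (13.7 to 78.8%) against 54.1% (53.0 to 55.2%). The wide intervals for 9 sites include the shares of the whole list, so a different class make-up was not detectable with so few sites. A count of 0 among 9 allows a YmA-dep share of up to 33.3% (taken as 3 counts of the 9), which also includes the 11.9% of the whole list. Intervals cover counting error only, and sites of 1 gene are not independent of each other.

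**Figure D1:**
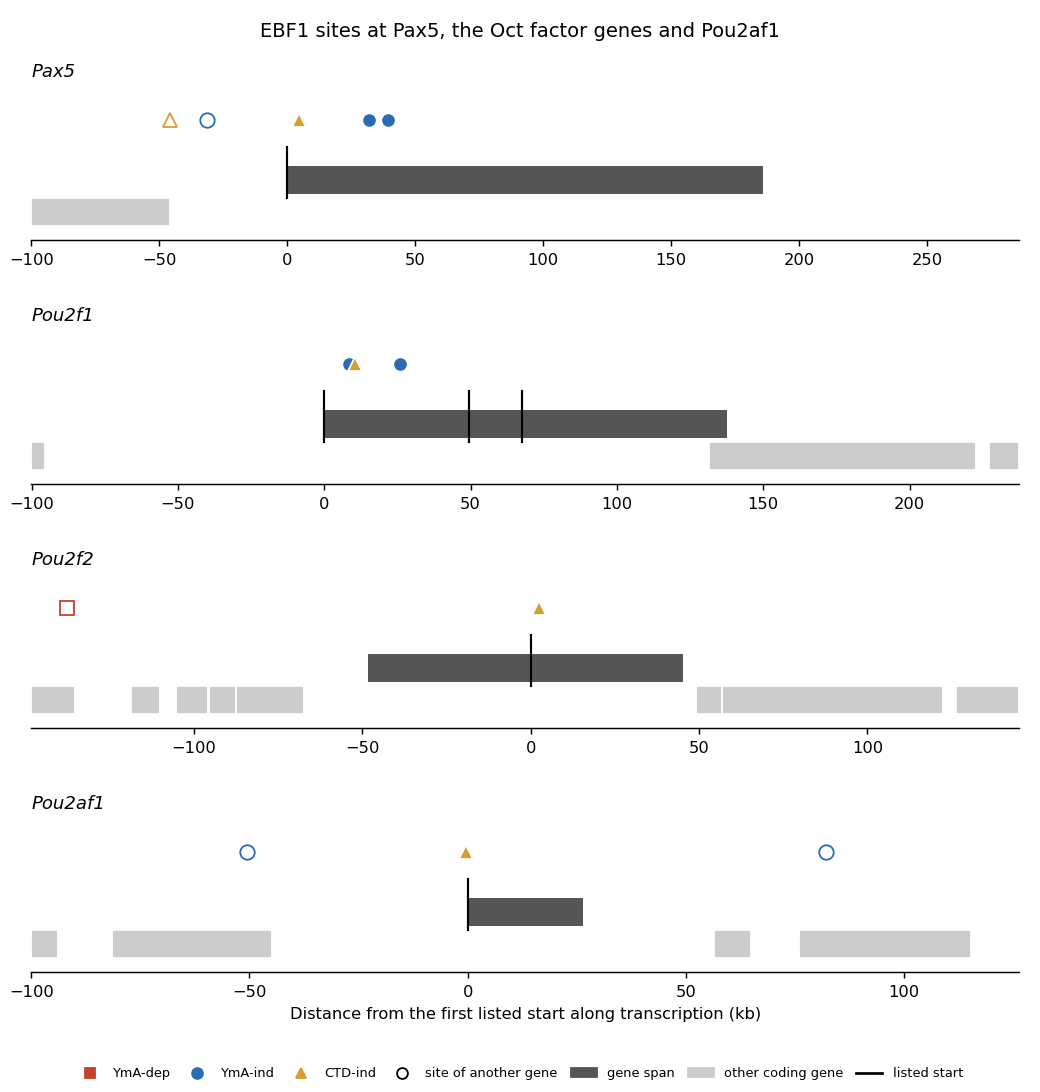
Positions of EBF1 sites (symbols, by class) around the 4 genes, in kb from the first listed start along the direction of transcription; dark bars are the gene spans, grey bars other coding genes within 100 kb, black lines listed starts, and open symbols sites that belong to another gene. The 4 sites of Pax5 and the 3 of Pou2f1 lie in the part of the gene nearest to its start, and the single CTD-ind sites of Pou2f2 and Pou2af1 lie beside a start.

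Each of the 4 genes had a CTD-ind site, and Pax5 had 2. Of all coding genes, 9.32% had a CTD-ind site and 1.63% had 2 or more. YmA-ind sites were found at Pax5 and Pou2f1, with 2 at each, while 12.2% of coding genes had any. Pax5 and Pou2f1 each combined both classes, as did 49.2% of the 1459 coding genes with 2 or more sites. YmA-dep sites, absent here, were found at 3.26% of coding genes.

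Pax5 lies on the minus strand of chromosome 4 (44524748 to 44710694) and spans 185.9 kb, with 1 listed start at its upper end. Its sites formed 2 pairs. The first pair, both CTD-ind, lay 4.52 kb (44706027 to 44706326) and 5.34 kb (44705208 to 44705507) downstream of the start, with centres 0.819 kb apart. Over the list, 5.62% of sites had another site within 1 kb. Among the 216 neighbouring pairs that close, 34 (15.7%) had both sites in the CTD-ind class. The site at 5.34 kb was centred 0.247 kb from the end of 5730488B01Rik, a long non-coding RNA gene (44702800 to 44705110) that lies inside the Pax5 span.

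The second Pax5 pair was YmA-ind and lay 31.8 kb (44678751 to 44679050) and 39.5 kb (44671063 to 44671362) from the start, 7.69 kb apart. The nearest annotated non-coding gene to both was the lncRNA gene Gm12462, at 2.31 kb and 10.0 kb. From the last of these sites to the far end of Pax5, 146.5 kb held no listed site. All 4 sites therefore lay within the first 21.2% of the gene. Pax5 is known to have more than 1 promoter and an enhancer in an intron. The annotation used here gave no exon positions, so the sites are given as inside the gene and not as intronic or exonic.

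Upstream of Pax5 the next coding gene is Zcchc7, 45.9 kb away, which encodes a zinc-knuckle protein and is transcribed in the opposite direction. In the stretch between the genes, a YmA-ind site (44741905 to 44742204) lay 31.4 kb from Pax5 and 14.5 kb from Zcchc7. It therefore belonged to Zcchc7 by the nearest-gene rule. A CTD-ind site (44756404 to 44756703) lay 45.9 kb from Pax5 with its centre 5 bp outside the Zcchc7 span. If other genes were ignored and every site within 100 kb counted, Pax5 would have 6 sites. The bases of this last site that precede the Zcchc7 start are shown as the one stretch of site sequence at hand in the 4 neighbourhoods, with a single arm of the EBF palindrome in capitals.
Zcchc7 (chr4:44756404-44756558, plus strand): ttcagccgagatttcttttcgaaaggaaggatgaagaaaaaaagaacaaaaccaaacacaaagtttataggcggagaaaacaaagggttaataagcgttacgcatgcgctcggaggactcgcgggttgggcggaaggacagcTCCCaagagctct
Neither the full palindrome nor its core was found in the Zcchc7 window.

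Pou2f1, the Oct-1 gene, lies on the minus strand of chromosome 1 (165865150 to 166002749), spans 137.6 kb and has 3 listed starts, 0.115, 49.7 and 67.8 kb from the upper end of the span. Its 3 sites all lay between the first and the second start. A YmA-ind site (165994107 to 165994406) was 8.38 kb downstream of the first start, and a CTD-ind site (165992006 to 165992305) was 10.5 kb downstream. Their centres were 2.10 kb apart. The remaining YmA-ind site (165976688 to 165976987) lay 25.9 kb from the upper end of the span and was nearer to the second start, 23.8 kb upstream of it. All 3 thus fell in the first 18.8% of the gene. No other listed site lay within 100 kb of Pou2f1, although the T-cell receptor zeta chain gene Cd247 overlaps its far end.

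Pou2f2, the Oct-2 gene, lies on the minus strand of chromosome 7 (25087350 to 25180797) and spans 93.4 kb. Its 1 listed start is at 25132460, 48.3 kb inside the upper end of the span. Its single site was CTD-ind (25129718 to 25130017) and lay 2.59 kb downstream of that start. Measured from the end of the span, the same site was at 50.9 kb, or 54.5% of the way along the gene. This site stood alone: the nearest other site was 140.2 kb away, inside Cic, and was YmA-dep (25269958 to 25270257). Pou2f2 has 8 coding genes within 100 kb, the most of the 4.

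Pou2af1, the OCA-B gene, lies on the plus strand of chromosome 9 (51213690 to 51240079) and spans 26.4 kb. It was the only one of the 4 with no site inside. Its CTD-ind site (51213081 to 51213380) was centred 460 bp upstream of the start, the shortest distance to a start among the 9 sites. The nearest other site was 50.0 kb away, a YmA-ind site (51163076 to 51163375) inside Gm32742.

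Pou2af1 sits beside the genes of its relatives: Colca2, now called Pou2af3, is 30.2 kb downstream, and 1810046K07Rik, now called Pou2af2, is 49.6 kb downstream. Both are known as coactivators of the Oct factor of tuft cells, Pou2f3. Colca2 had 0 sites. A YmA-ind site (51295577 to 51295876) lay inside 1810046K07Rik. When non-coding genes were also allowed to take sites, that site went to another gene, and 1 of the 3 coactivator genes, Pou2af1, kept a site. One of the 2 promoter windows of 1810046K07Rik held 2 exact octamers, one on each strand, which 0.107% of all windows equalled or exceeded. That stretch was picked after the windows had been searched, so its rarity is descriptive only. It is shown with both octamers in capitals.
1810046K07Rik (chr9:51328939-51329038, minus strand): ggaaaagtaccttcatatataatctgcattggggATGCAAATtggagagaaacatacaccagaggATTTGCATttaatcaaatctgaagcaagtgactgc
No EBF1 site touched that window.

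The counts of inside sites were also set beside those of coding genes at least as long, since a longer gene has more room for sites. The part of gene length in the counts was not tested. Of 1092 coding genes at least as long as Pax5, 32% had a site inside and 5.31% had 4 or more. Of 1607 genes at least as long as Pou2f1, 8.77% had 3 or more inside. Of 2628 genes at least as long as Pou2f2, 29.8% had 1 or more. The median was 0 in each of these groups. Most genes at least as long as Pou2f2 thus had no inside site. Counts as high as those of Pax5 and Pou2f1 were found in smaller shares of their groups than a count of 1 or more was for Pou2f2. For Pou2af1, with none inside, the share of genes at least as long with an inside site was 22.2%.

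**Figure D2:**
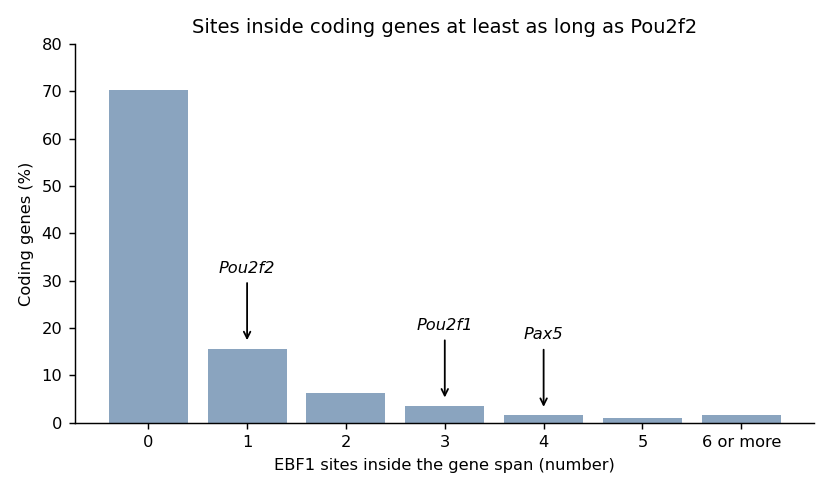
Share of the 2628 coding genes at least as long as Pou2f2 (y axis, percent) by number of EBF1 sites inside the gene span (x axis). Of these genes 70.2% had 0 inside sites, 15.7% had 1 as Pou2f2 did, 3.58% had 3 as Pou2f1 did and 1.60% had 4 as Pax5 did.

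Within the genes, the sites lay towards the start. All 7 sites of Pax5 and Pou2f1 were in the first 25% of the span, while the site of Pou2f2 was past its middle. In coding genes at least as long as Pou2f2 and with a promoter window, 29.5% of 1264 inside sites were in that part. For CTD-ind sites in such genes this share was 37.5%, and for YmA-ind sites it was 24.4%.

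CTD-ind sites of the 4 genes lay nearer to starts than the YmA-ind sites did, with 1 exception. The 5 CTD-ind sites were 0.46 to 10.5 kb from the nearest listed start of their gene, with a median of 4.52 kb. Over the whole list the CTD-ind median was 7.17 kb (quartiles 0.478 and 30.4 kb, 1962 sites at genes with a listed start). The 4 YmA-ind sites were 8.38 to 39.5 kb from a start, with a median of 27.8 kb, against 19.7 kb over 2955 YmA-ind sites (quartiles 5.88 and 53.9 kb). The ranges overlapped at Pou2f1, where the YmA-ind site at 8.38 kb was nearer to the start than the CTD-ind site at 10.5 kb. No test was made, as the sites share genes and the list has no replicate. Within 5 kb of a start lay 3 of the 9 sites, near the 30.0% of all 5529 sites of the list at genes with a listed start. These 3 were all CTD-ind. By class the shares in the list were 45.7% of CTD-ind, 22.9% of YmA-ind and 13.9% of YmA-dep sites. Downstream of the start used lay 7 of the 9, against 68.4% of all such sites.

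**Figure D3:**
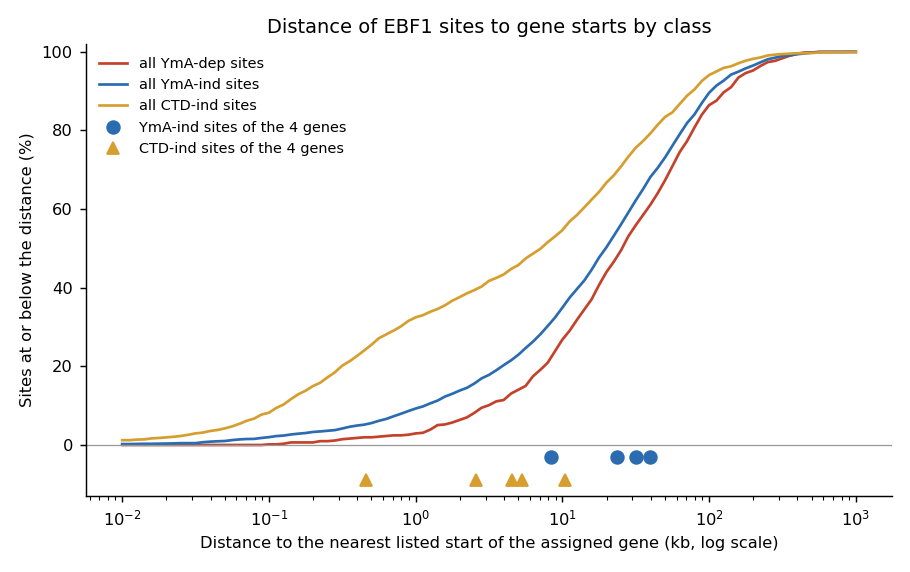
Cumulative share of all EBF1 sites (y axis, percent) by distance to the nearest listed start of the gene they belong to (x axis, kb, log scale), for each class, with the 9 sites of the 4 genes as symbols below the curves. The CTD-ind sites of the 4 genes sit between 0.46 and 10.5 kb and the YmA-ind sites between 8.38 and 39.5 kb, overlapping at Pou2f1.

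Spacing also varied among the 9 sites. Another site lay within 10 kb of 6 of them, all in Pax5 and Pou2f1, against 33.2% of all sites. The pairs of Pax5 joined sites of the same class, while the close pair of Pou2f1 joined a YmA-ind and a CTD-ind site. Over the list, 46.9% of 1423 neighbouring pairs within 10 kb shared a class. The sites of Pou2f2 and Pou2af1 were farther from any other site than the median of the list, 23.3 kb.

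Most paralogs of the 4 genes had 0 sites. Of the 9 Pax family genes, which encode paired-domain factors of many tissues, 3 had a site, with a family median of 0 sites. Besides Pax5 these were Pax7, a muscle factor, with 2 CTD-ind sites and Pax2, a kidney factor, with 1. The sites of Pax2 and Pax7 lay 27.4 kb or more from a start, while the nearest of Pax5 lay at 4.52 kb. Of the 15 POU family genes, 4 had a site, and the median was again 0. Besides Pou2f1 and Pou2f2 these were Pou4f1, a sensory neuron factor, with a YmA-ind site, and Pou3f3, a neural factor, with a YmA-dep site 74.0 kb away. Pou2f3, the tuft cell relative of Oct-1 and Oct-2, had 0. Without the listed members, 2 of 8 Pax and 2 of 13 POU genes had a site, near the 19.6% of all coding genes.

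**Figure D4:**
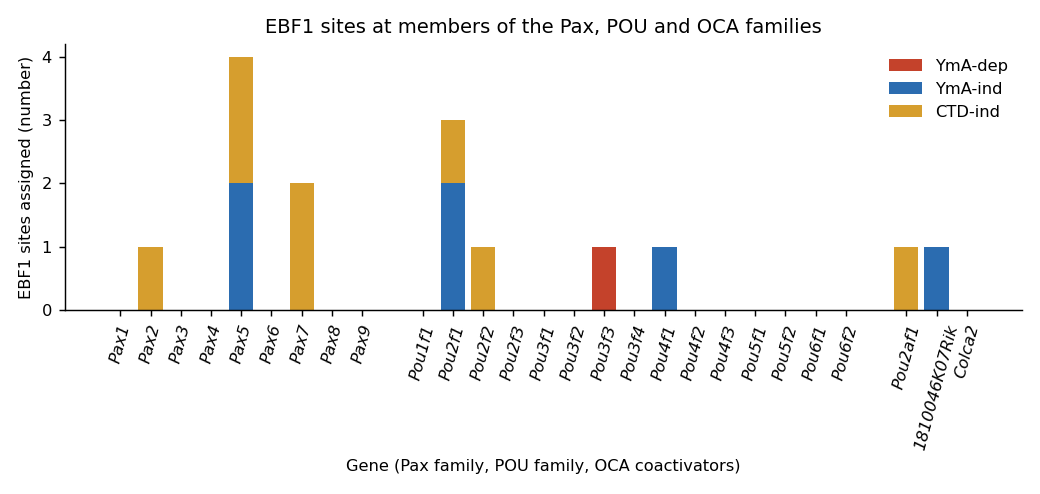
Number of EBF1 sites assigned to each gene of the Pax family, the POU family and the OCA coactivator family (bars, stacked by class). Pax5 with 4 and Pou2f1 with 3 stand highest, and most paralogs have 0.

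Genes on which these factors are known to act were looked at as 2 lists. Both lists were chosen with earlier results of these data known, so their shares below are descriptive only. Of 17 genes taken as Pax5 targets, 15 (88.2%) had a site, against 19.6% of all coding genes, with 48 sites in all and a median of 2 a gene. YmA-ind sites numbered 28 (58.3%), CTD-ind sites 15 (31.2%) and YmA-dep sites 5 (10.4%), near their shares of the whole list, 54.1, 34.0 and 11.9%. Bcar3 had the most assigned sites (8, with 1 of them inside or within 10 kb), followed by Irf8, Lef1 and Nedd9 (6 each) and by Blnk, Ikzf3 and Sdc4 (4 each). Of 12 genes taken as targets of the Oct factors and OCA-B, 9 (75%) had a site, again against 19.6%, with 16 in all and a median of 1. Ly86 had the most assigned sites (4), with 0 inside or within 10 kb and the nearest 22.1 kb outside. Bcl6, the germinal centre repressor, had 3, of which 1 lay inside or within 10 kb. Cd79b and Cxcr5 had 2 each, and Btk and Cd22 were among those with 1 each. Cd36, Mef2b and Ms4a1 had 0 assigned, although 1 site assigned to another gene lay inside or within 10 kb of Mef2b. Many of these genes are B-lineage genes that EBF1 itself is known to act on, and the median over all coding genes is 0 sites.

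Promoter windows under an EBF1 site held the EBF palindrome far more often than others. Of 540 windows with at least 100 bases under a site, 13.7% (10.9 to 16.9%) held TCCCNNGGGA, against 0.690% (0.602 to 0.787%) of 31906 windows that no site touched. For the core CCCNNGGG the shares were 51.9% and 13.1%. The exact octamer ATGCAAAT was as frequent in both, at 1.85% (0.892 to 3.38%) and 1.74% (1.60 to 1.89%). With at most 1 mismatch it was found in 9.26% of windows under a site and in 18.8% of the others. The 32585 windows belong to 17274 coding genes, so windows of 1 gene are not independent and the intervals may be too narrow. The part of base composition in these differences was not tested.

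**Figure D5:**
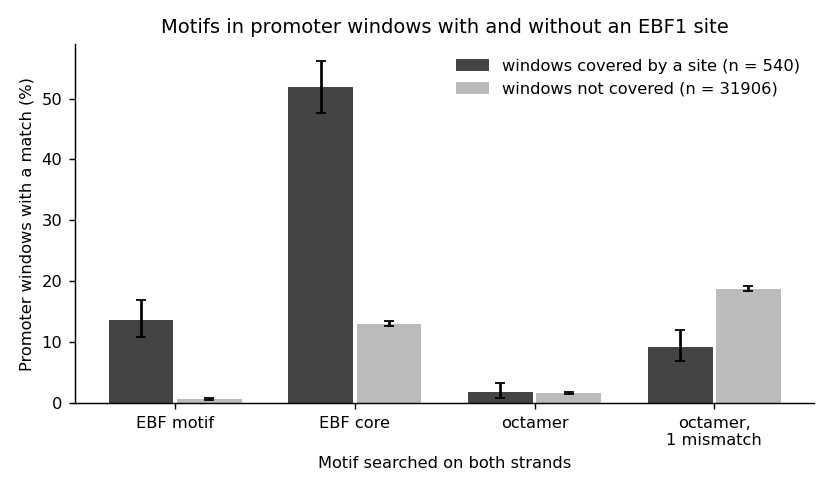
Share of promoter windows (y axis, percent) with a match to each motif, for 540 windows with at least 100 bases under an EBF1 site (dark) and 31906 windows with none (light); error bars are 95% exact binomial intervals. The EBF palindrome is found in 13.7% against 0.690%, and the exact octamer in 1.85% against 1.74%. The intervals treat windows as independent, although 1 gene can have several.

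Of the genes of both target lists, 4 had a site over the bases before a listed start. Sdc4 and Cd22 had the full palindrome in these bases, both under CTD-ind sites. Cd79a, which encodes the B-cell receptor chain Ig-alpha, had a CTD-ind site over its window with neither the palindrome nor its core. Il5ra, an interleukin receptor gene, had a YmA-dep site over 108 bases, also with neither, and is not shown. The first 3 are shown for comparison with the Pou2af1 and Pax5 stretches, and were chosen after their values were seen. Capitals mark the palindrome in Sdc4 and Cd22 and its single arms in Cd79a.
Sdc4 (chr2:164443189-164443399, minus strand): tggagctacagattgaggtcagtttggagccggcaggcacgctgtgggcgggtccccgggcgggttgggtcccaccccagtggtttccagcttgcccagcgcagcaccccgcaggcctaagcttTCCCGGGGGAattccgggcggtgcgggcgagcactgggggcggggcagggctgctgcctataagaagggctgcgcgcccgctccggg
Cd22 (chr7:30879029-30879225, minus strand): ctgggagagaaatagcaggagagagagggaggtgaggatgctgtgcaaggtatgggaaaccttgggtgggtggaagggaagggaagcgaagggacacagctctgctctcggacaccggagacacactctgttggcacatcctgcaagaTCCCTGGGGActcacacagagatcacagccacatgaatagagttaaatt
Cd79a (chr7:24897247-24897493, plus strand): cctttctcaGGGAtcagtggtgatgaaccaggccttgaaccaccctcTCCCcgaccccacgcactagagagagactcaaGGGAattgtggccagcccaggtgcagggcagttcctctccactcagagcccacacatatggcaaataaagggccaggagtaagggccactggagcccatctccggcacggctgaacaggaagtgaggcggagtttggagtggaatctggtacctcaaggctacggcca
Like the Cd79a stretch, the Pax5 stretch above holds single arms only. This likeness says little, since 95.4% of all windows hold a single arm. No site lay over the Pax5 stretch.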

How the data were processed

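Formaldehyde-fixed, sonicated chromatin was precipitated with an EBF1 antibody, per the labels' protocols. The submitters' processing notes name the tools Bowtie2, SAMtools and deepTools and the build GRCm38, or mm10. Peak caller, threshold and class rule are not stated there. The deposited list gives positions in bp and, per the file headers, a deepTools group for each site, and holds no depth. Read depth and precision per site are therefore unknown.

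Sites were assigned by their centre with Python 3.11.15 and pandas 2.3.3 to the shortest coding gene holding it, or to the nearest within 100 kb. Genes came from RefSeq for GRCm38, less 345 of other scaffolds. Starts and promoter sequences came from RefSeq windows, at hand for 17274 of 21521 coding genes. Assignment was tested on simulated data. Distances to starts and positions along genes use sites whose gene has a window. No test was fitted. The members and lists were chosen with earlier results of these data known. Named are all members and, per list, up to 5 genes with most sites and one within 10 kb; others were named after their values were seen. Intervals are exact (Clopper-Pearson, 95%). Alternatives varied the distance limit, gene set, site position and motif.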

Additional observations from a re-analysis of the deposited data

How the results depend on the processing

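The 9 sites, their split of 5 CTD-ind and 4 YmA-ind, and the presence of a site at all 4 genes were the same with no distance limit, within 20 kb, with a 10 kb flank, with all annotated genes competing and with any overlap counted as inside. With every site within 100 kb counted and other genes ignored, the total became 14, of which 6 were CTD-ind, 7 YmA-ind and 1 YmA-dep, and Pou2af1 had 3 and Pou2f2 had 2. That count takes in sites of neighbouring genes by construction. Of 87 alternative values, 78 stayed within 1.5 times the value reported or within its interval, and 9 moved. A single arm of the EBF palindrome was found in 99.3% of windows under a site, so it does not separate them. The core CCCNNGGG was chosen after the promoter table was seen. No paired analysis was possible because 1 library had a file and no test was made. Without depth or score per site, the lack of a listed site does not show that EBF1 was not there. Exon positions were not used here.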
